A study of Mus musculus with 4 samples.

Results

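Interferon-stimulated genes, the transcripts that cells raise when they sense a virus or an interferon, were followed in white adipose tissue of mice fed a high fat diet. The group was a set of 35 genes chosen by symbol, and every bead type (a bead-bound probe) whose annotated symbol was one of the 35 was taken. A named bead type existed for 34 of the 35 genes, 68 bead types in all, and Ifi44 had none in the annotation used. Signal above background was found for 28 genes, each on all 4 arrays, out of 11384 genes with a signal on at least 1 array and 19057 genes with a named bead type. The mice were female C57BL/6, an inbred laboratory strain, aged 9 months. One group was given normal chow and the others a diet with 60% of its energy as fat, and each diet is labelled as fed for 9 months. The high fat groups belonged to the F0, F1 and F2 generations. Each of the 4 groups was 1 array of mixed RNA, from 3 samples for chow and from 4 samples for each high fat group, and no label tells if those samples were separate animals. Chow F1 or F2 mice were not analysed here, so generation was followed on the high fat diet alone.

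Type I interferons bind the receptor pair Ifnar1 and Ifnar2, which activates the kinases Jak1 and Tyk2. A complex that holds Stat2 and Irf9 then binds a DNA element called the interferon-stimulated response element (ISRE) and switches on antiviral genes. Interferon gamma acts through its own receptor and on another element, the gamma-activated site (GAS). In adipose tissue, fat cells, macrophages and other immune cells all carry interferon receptors, and some factors of the family, such as Irf5 and Irf8, are known mainly from immune cells.

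Because every group was a single array, no spread within a group exists and pairs of arrays are set side by side by size alone. Sizes are on the log2 scale of background-corrected and quantile-normalized signal, and 2-fold was the size used for counting. Detection required a p below 0.01 against the array's own negative controls. The arrays detected between 37.8% and 40.9% of 45281 bead types. The tissue label was checked with 8 adipocyte genes fixed for this purpose, and all 8, among them the adipokine gene Adipoq and the lipid droplet coat gene Plin1, were detected on all 4 arrays. As a scale for what follows, bead types of 1 gene differed with an SD of 0.305, 0.290 and 0.314 in the F0, F1 and F2 differences from chow, over 3069 genes.

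A small subset of the interferon-stimulated genes stood at least 2-fold higher on the high fat arrays. Most of the classical antiviral genes stayed within 2-fold of chow, as did most of all genes. Irf5, Oas1g and Oasl1 were at least 2-fold higher on the F0 array, which is 3 of 28 genes, while 6.7% of all 11384 genes were as much higher. On the F1 array Irf8 joined them, giving 4 of 28 beside 7.38% of all genes. On the F2 array Bst2 was the fifth, giving 5 of 28 beside 9.35% of all genes. By the brightest bead type of each gene, none of the 28 was at least 2-fold lower than chow on any high fat array. Of all genes, 6.64%, 6.31% and 8.24% were as much lower on F0, F1 and F2. Another bead type of Oasl2 differed from chow by -1.2 on F0, where it was not detected. Each of these comparisons used the same chow array. Where the background was not corrected, Irf5 was the 1 member left at 2-fold on F0, and Bst2 the 1 member left between F2 and F0. Irf8 was then under 2-fold on F1, as it was with median scaling.

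The whole set moved little in its centre on F0 and further on F2. The median log2 difference from chow was 0.021 on F0, 0.134 on F1 and 0.417 on F2, and the median over all genes was -0.013, -0.021 and -0.095. On F2 the quartiles of the members were 0.053 and 0.717, and those of all genes -0.469 and 0.327. The scaling moved these medians and those of all genes. On F0 the members' median was -0.108 with median scaling, beside -0.109 for all genes, and -0.124 with the authors' value table, beside -0.063. On F1 with that table it was -0.016, beside -0.056 for all genes. The F2 median stayed above 0 in every alternative, from 0.299 to 0.447. By any size, 18 members were above chow on F0, 19 on F1 and 23 on F2, beside 49.0%, 48.3% and 43.6% of all genes. In whole tissue a change in the share of a cell type and a change in RNA per cell cannot be told apart.

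**Figure D1:**
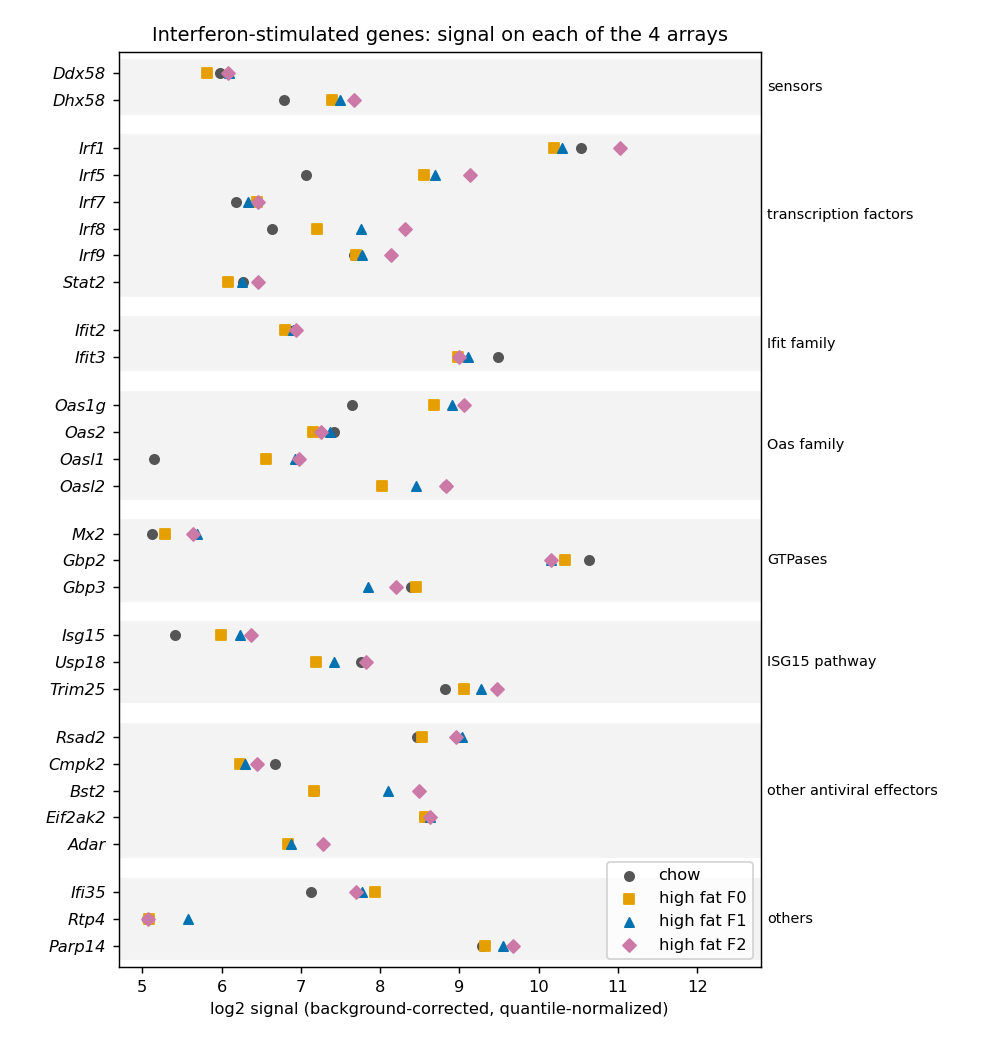
Log2 signal (background-corrected, quantile-normalized) of the 28 detected interferon-stimulated genes, 1 row a gene, with 1 point for each of the chow, F0, F1 and F2 arrays and no error bars, since each group is 1 array (a later array's point can cover an earlier one). Irf5, Oas1g and Oasl1 show the chow point well to the left of the 3 high fat points, and Irf8 and Bst2 show the F2 point farthest to the right.

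The regions upstream of 8 members are shown, because they carry, or lack, the letters that the interferon-activated factors are known to bind. The promoter windows came from RefSeq on the mouse build GRCm38.p6, from 250 bases before to 50 bases after the transcript start, and 28 of the 35 members had one. Windows for Mx1, Mx2, Oas2, Rtp4, Dhx58, Parp14 and Usp18 were not used here. Both strands were searched for the ISRE letters GAAANNGAAA and for the GAS letters TTCNNNGAA, in which N is any base. The ISRE letters were in the window of 14 of the 28 members and of 3.99% of 27025 genes (3.44% of 32851 windows). The GAS letters were in 8 of the 28 and in 9.55% of all genes (8.3% of windows). The first sequences carry ISRE letters in capitals and run up to the start site of a gene that was at least 2-fold higher on all high fat arrays (Oas1g) or on F2 (Bst2), close to 2-fold on F2 (Isg15), or below chow on all of them by its brightest bead type (Ifit3, Gbp2). They lie at chr5:120887614-120887713 on the minus strand for Oas1g, chr8:71537473-71537622 on the minus strand for Bst2, chr4:156200819-156200918 on the minus strand for Isg15, chr19:34583349-34583528 on the plus strand for Ifit3 and chr3:142620563-142620662 on the plus strand for Gbp2. Capitals that begin with TTTC are the same letters read on the opposite strand.
Oas1g: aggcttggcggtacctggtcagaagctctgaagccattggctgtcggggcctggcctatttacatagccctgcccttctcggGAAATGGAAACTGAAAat
Bst2: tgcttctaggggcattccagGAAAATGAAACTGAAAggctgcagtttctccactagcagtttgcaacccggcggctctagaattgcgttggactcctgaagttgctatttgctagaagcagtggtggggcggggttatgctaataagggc
Isg15: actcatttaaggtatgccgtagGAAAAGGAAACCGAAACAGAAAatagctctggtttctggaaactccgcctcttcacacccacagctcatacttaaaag
Ifit3: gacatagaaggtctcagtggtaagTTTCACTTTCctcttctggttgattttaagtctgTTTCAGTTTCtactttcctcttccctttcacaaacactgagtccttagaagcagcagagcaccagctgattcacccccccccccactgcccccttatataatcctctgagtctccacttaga
Gbp2: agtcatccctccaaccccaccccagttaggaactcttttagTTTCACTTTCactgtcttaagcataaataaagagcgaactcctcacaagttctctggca

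The other sequences belong to the 3 remaining members with a 2-fold difference. Irf8 carries the GAS letters (capitals) in 1 of its 2 windows, at chr8:120736158-120736357 on the plus strand. Irf5, at chr6:29526525-29526624 on the plus strand, and Oasl1, at chr5:114923140-114923239 on the plus strand, hold neither run of letters in their windows and are printed without capitals.
Irf8: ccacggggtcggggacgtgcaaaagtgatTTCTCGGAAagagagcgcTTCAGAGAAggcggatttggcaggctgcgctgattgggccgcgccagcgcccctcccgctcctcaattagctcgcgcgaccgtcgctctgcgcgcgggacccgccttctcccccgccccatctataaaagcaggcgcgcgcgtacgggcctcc
Irf5: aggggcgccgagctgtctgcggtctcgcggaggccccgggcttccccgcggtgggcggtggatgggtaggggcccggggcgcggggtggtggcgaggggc
Oasl1: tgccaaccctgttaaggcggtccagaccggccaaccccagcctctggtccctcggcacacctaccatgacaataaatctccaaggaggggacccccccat

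Members that were higher on the high fat arrays were found both with and without the ISRE letters. The 10 detected members with the letters had a median high fat difference of 0.036, from -0.465 to 1.235, and 2 of them were at least 2-fold higher on F2. The 12 detected members with a window but no such letters had a median of 0.214, from -0.392 to 1.728, and 3 were 2-fold higher. A match is a description of letters, not of a bound site, and a window without a match says nothing of the factors.

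Among the transcription factors, Irf5 stood apart from chow on every high fat array. Irf5 is a factor that drives inflammatory cytokine genes downstream of Toll-like receptors, and it is known for its part in inflammatory macrophages. Its log2 signal was 7.07 on chow, 8.55 on F0, 8.70 on F1 and 9.14 on F2, from deposited intensities of 183.8, 401.4, 449.6 and 613.1. All 3 high fat arrays were above chow, by 2.80-fold, 3.09-fold and 4.20-fold. In a limma fit of the 3 high fat arrays against chow the difference was 1.73 ± 0.283 (log2, SE; n = 3 and 1 arrays), with a Benjamini-Hochberg adjusted p of 0.0375 over all 11384 genes.

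Irf8, a factor needed for macrophage and dendritic cell development that is also induced by interferon gamma, climbed from array to array. Its log2 signal was 6.64 on chow, 7.20 on F0, 7.75 on F1 and 8.31 on F2, from intensities of 147.2, 181.4, 251.3 and 364.7. The F0 array was 1.48-fold above chow, F1 2.16-fold and F2 3.19-fold. The high fat difference of 1.12 ± 0.451 did not pass limma's test (adjusted p = 0.214), and the slope over the generations did, at 0.556 ± 0.101 log2 units per generation (adjusted p = 0.0441, limma, n = 3 arrays).

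The other interferon factors stayed within 2-fold of chow. Irf1, which interferon gamma induces directly, was 10.54 on chow, 10.19 on F0, 10.29 on F1 and 11.03 on F2, so that on this bead type F0 and F1 lay below chow and F2 above it. Its 3 other bead types detected on all arrays ranged from -0.318 to 0.014 on F0, from -0.178 to 0.257 on F1 and from 0.308 to 0.932 on F2. Its slope of 0.419 ± 0.101 had an adjusted p of 0.064 by limma. Irf7, the factor that amplifies type I interferon production, read 6.18, 6.45, 6.33 and 6.46 in the same order. Irf9 read 7.67, 7.69, 7.78 and 8.14, and Stat2 read 6.27, 6.08, 6.26 and 6.46. Irf9 and Stat2 are the partners that carry the type I signal to the ISRE, and neither passed either test (adjusted p = 0.673 and 0.992 for the high fat difference, limma).

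Of the cytosolic RNA sensors, Dhx58 (the helicase LGP2, a modulator of the other sensors) was above chow on each high fat array. Its log2 signals were 6.78 on chow and 7.39, 7.50 and 7.67 on F0, F1 and F2, which is 1.52-fold to 1.85-fold, with an adjusted p of 0.129 by limma. Its other detected bead types gave differences of the same sign, between 0.452 and 0.892. Ddx58 (RIG-I, which detects viral RNA ends) read 5.98, 5.81, 6.09 and 6.08 and lay on both sides of chow. Ifih1 (MDA5, the sensor of long double-stranded RNA) was not detected on any array.

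In the oligoadenylate synthetase family, whose active members make the second messenger that activates RNase L, Oas1g and Oasl1 were higher and the others were not. Oas1g had log2 signals of 7.64 on chow, 8.67 on F0, 8.91 on F1 and 9.06 on F2, with intensities of 252.6, 434.8, 516.1 and 582.2. Every high fat array was above chow, by 2.04-fold, 2.40-fold and 2.66-fold. The limma difference was 1.24 ± 0.220 with an adjusted p of 0.0441. Its other detected bead type gave log2 differences of 1.32, 1.65 and 1.85 on F0, F1 and F2.

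Oasl1, an oligoadenylate synthetase-like protein known in mice to restrain translation of Irf7, had log2 signals of 5.14 on chow, 6.56 on F0, 6.93 on F1 and 6.98 on F2. These came from low intensities of 76.8, 131.1, 158.5 and 171.4, and the chow value lay near the lowest detected signal of that array, 4.82. The high fat arrays were 2.67-fold, 3.44-fold and 3.57-fold above chow, and the limma difference was 1.68 ± 0.274 with an adjusted p of 0.0374. A second bead type, detected on the high fat arrays and not on chow, was at least 2.09-fold, 2.44-fold and 2.68-fold higher against the lowest detected chow signal. For a signal this low the size depends on the background: without its correction the differences were 0.823, 1.087 and 1.129, and with the authors' value table they were 1.744, 2.239 and 2.426.

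Oasl2 followed another course. Its log2 signals were 8.83 on chow, 8.03 on F0, 8.45 on F1 and 8.84 on F2, so F0 was 1.75-fold below chow and F2 was level with it. Another bead type differed from chow by -0.826 on F0 and, unlike the brightest one, by -0.361 on F2. A further one, detected on chow, F1 and F2, differed by -1.2 on F0 and by -0.998 on F2. Oas2 read 7.41, 7.15, 7.37 and 7.25 and stayed within 1.5-fold of chow. Oas1a and Oas3 were not detected. Bead types for near-identical family members can take up each other's transcripts, so the split between Oas1a and Oas1g, between Oasl1 and Oasl2, and among the Ifit3, Gbp and Mx genes is uncertain.

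The Ifit family, which binds viral RNA and blocks its translation, had 2 detected members, both within 2-fold of chow. Ifit3 read 9.49 on chow, 8.98 on F0, 9.11 on F1 and 9.00 on F2. All high fat arrays were below chow on this bead type, by 1.43-fold, 1.30-fold and 1.41-fold, and the limma difference of -0.465 ± 0.167 had an adjusted p of 0.176. The other bead type of Ifit3 gave -0.178, 0.071 and -0.382, so its sign differed on F1. Ifit2 read 6.83, 6.80, 6.90 and 6.94, with differences between -0.041 and 0.168 on its other bead type, and Ifit1 was not detected.

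The interferon-induced GTPases also lay within 2-fold of chow. Gbp2, a guanylate-binding protein that attacks the vacuoles of intracellular pathogens, read 10.63 on chow, 10.33 on F0, 10.16 on F1 and 10.16 on F2, so all high fat arrays were below chow (adjusted p = 0.207, limma). Gbp3 read 8.39, 8.45, 7.85 and 8.20 and was the lowest member on F1, at -0.546. Mx2 read 5.12, 5.29, 5.69 and 5.64, above chow on each high fat array and with an adjusted p of 0.395. Mx1, the influenza restriction factor, was not detected.

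In the ISG15 pathway, Isg15 and Trim25 were above chow on each high fat array and Usp18 was not. Isg15, a ubiquitin-like modifier, read 5.41 on chow, 6.00 on F0, 6.23 on F1 and 6.37 on F2. The differences were 1.501-fold, 1.76-fold and 1.95-fold, just under the 2-fold mark, with an adjusted p of 0.149 by limma. Trim25, the ubiquitin ligase that activates RIG-I, read 8.82, 9.05, 9.27 and 9.48 (adjusted p = 0.292). Usp18, which removes Isg15 from proteins and dampens the receptor, read 7.75 on chow, 7.20 on F0, 7.42 on F1 and 7.82 on F2. Its other bead type disagreed in sign on F0 and F1, with 0.300 and 0.379 against -0.557 and -0.330.

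Among the other antiviral effectors, Bst2 alone passed the 2-fold mark. Bst2 (tetherin) holds budding virus particles at the cell surface and is also a surface marker of mouse plasmacytoid dendritic cells. Its log2 signal was 7.16 on chow, 7.17 on F0, 8.10 on F1 and 8.49 on F2, with intensities of 193.1, 178.8, 308.9 and 406.9. F0 was level with chow, F1 was 1.91-fold higher and F2 2.51-fold higher. The slope over generations was 0.661 ± 0.115 with an adjusted p of 0.0427 by limma, and the high fat difference of 0.758 ± 0.531 did not pass (adjusted p = 0.439). In the promoter shown for Bst2 the GAS letters also occur, overlapping the start of the ISRE run.

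Rsad2 (viperin, an enzyme that makes a chain-terminating nucleotide) read 8.46 on chow, 8.53 on F0, 9.03 on F1 and 8.95 on F2. Its neighbour in the genome, Cmpk2, a nucleotide kinase, was lower than chow on each high fat array, at 6.68 against 6.23, 6.29 and 6.45. Eif2ak2 (PKR, the kinase that stops translation on double-stranded RNA) was nearly flat, at 8.55, 8.57, 8.63 and 8.62. Adar, which edits double-stranded RNA, read 6.83, 6.84, 6.88 and 7.28, and its other bead types ranged from -0.431 to 0.939 against chow. None of these passed either limma test.

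Of the remaining members, Ifi35, which binds the interferon-induced protein Nmi, was highest on F0. It read 7.13 on chow, 7.93 on F0, 7.77 on F1 and 7.69 on F2, above chow on each array, by 1.75-fold, 1.57-fold and 1.48-fold (adjusted p = 0.136, limma). Parp14, a mono-ADP-ribosyltransferase, read 9.28, 9.32, 9.55 and 9.67, and its other bead type read -0.442 on F0 and 0.174 on F2. Rtp4 read 5.07, 5.09, 5.58 and 5.07, near the limit of detection. Xaf1, a pro-apoptotic interferon target, was not detected. The 6 undetected members (Ifih1, Ifit1, Oas1a, Oas3, Mx1 and Xaf1) had detection p-values of 0.0288 or more and intensities of 51.1 to 67.1. Their levels were below what these arrays could measure, which does not show that the transcripts were absent.

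**Figure D2:**
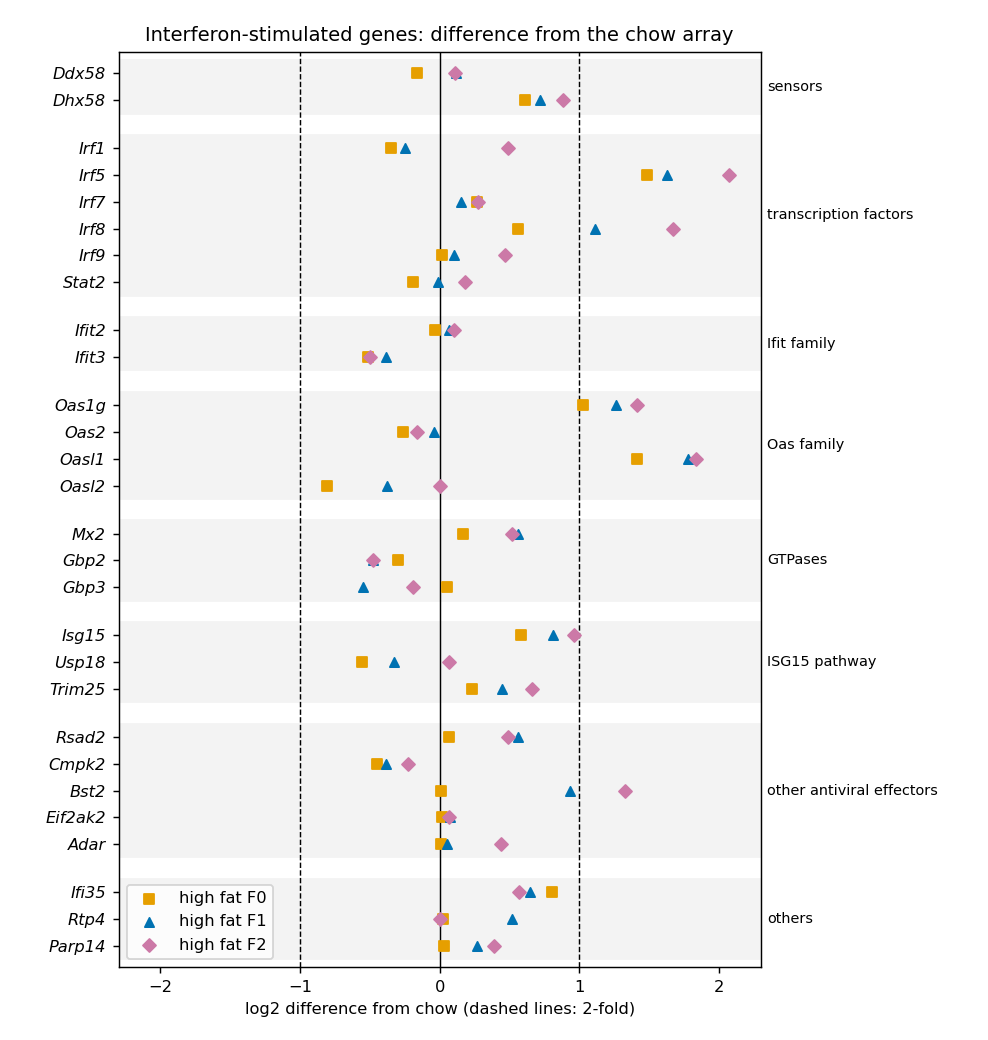
Log2 difference from the chow array for the 28 detected interferon-stimulated genes, 1 point for each of F0, F1 and F2, with dashed lines at 2-fold and no error bars (1 array a group). Irf5, Oas1g and Oasl1 lie beyond the right line on all 3 arrays, Irf8 on F1 and F2, and Bst2 on F2, while no point lies beyond the left line.

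**Figure D3:**
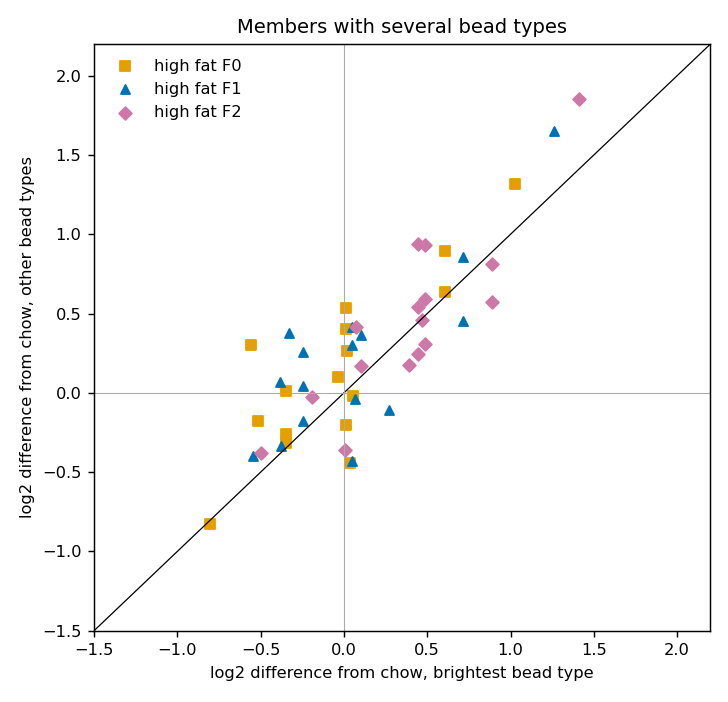
Log2 difference from chow given by the other bead types of a gene (vertical axis) against that of its brightest bead type (horizontal axis), for the 11 members with several bead types detected on all 4 arrays, with a diagonal line of equality. The 3 points farthest to the upper right are those of Oas1g, and points in the upper left or lower right quadrant, such as Usp18 on F0 at -0.557 and 0.300, differ in sign. Irf5, Irf8 and Bst2 had 1 bead type each and no such check.

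The pooled test asked which members differed between the 3 high fat arrays together and the chow array. Irf5, Oas1g and Oasl1 rose, which is 3 of 28 members, beside 2.91% of all genes that were called higher by limma at an adjusted p under 0.05. No member fell, beside 3.43% of all genes. At an unadjusted p under 0.05, 6 members were higher (the 3 named with Dhx58, Isg15 and Ifi35) and 1 was lower (Ifit3), beside 11.1% and 13.8% of all genes. The fit had 2 residual degrees of freedom, the 3 high fat arrays are not labelled as replicates, and its spread holds both the generations and technical noise. All 3 calls were lost without the F1 array (adjusted p = 0.153 for Irf5, 0.235 for Oas1g and 0.190 for Oasl1), when 1 gene in all was called. They were also lost with median scaling (0.0509, 0.0618 and 0.0559) and in the authors' value table (0.115, 0.109 and 0.0926), with the direction kept, and that of Oas1g without the mean trend in the variance (0.0533).

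Over the generations the signal of most members, by their brightest bead types, stood in rising order, by small steps. It was lowest on F0 and highest on F2, with F1 between, for 17 of 28 members, beside 24.0% of all genes. The opposite order was seen for 1 member, Ifi35, beside 30.4% of all genes. The count in rising order ranged from 13, with the mean of a gene's detected bead types, to 20 over the alternatives, which were chosen after seeing the data. Steps between neighbouring generations were small: no member was 2-fold apart between F1 and F0 (0.905% of all genes were) or between F2 and F1 (3.9%). Between F2 and F0, Irf8 (2.16-fold) and Bst2 (2.499-fold) were at least 2-fold higher, 2 of 28 beside 4.6% of all genes, and no member was as much lower, beside 2.53%. The median log2 difference between F2 and F0 was 0.365 for the members and -0.046 for all genes. Hepatocyte markers moved between the same arrays: their summed linear signal was 257.8 on chow, 354.8 on F0, 3686 on F1 and 8991 on F2. Their part in the order of the members was not tested.

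Irf8 and Bst2 were also the 2 members whose slope over generations passed limma's test, beside 2.22% of all genes with a rising slope. The slopes of all 5 detected hepatocyte markers (Ttr, Apoa2, Apoc3, Serpina1b and Ahsg) were also called upward, between 1.55 and 3.38 log2 units per generation, and the other 2 listed, Alb and Fgb, were not detected. No slope fell among the members by limma, adjusted or at an unadjusted p under 0.05, beside 1.86% and 14.1% of all genes. At an unadjusted p under 0.05, 7 slopes were upward (Irf1, Irf5, Irf8, Oasl2, Usp18, Trim25 and Bst2), beside 12.3% of all genes. The slope fit had 1 residual degree of freedom. With median scaling the adjusted p was 0.0638 for Irf8 and 0.0648 for Bst2, it was 0.337 and 0.338 with the authors' value table, and without the mean trend in the variance it was 0.108 for both.

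**Figure D4:**
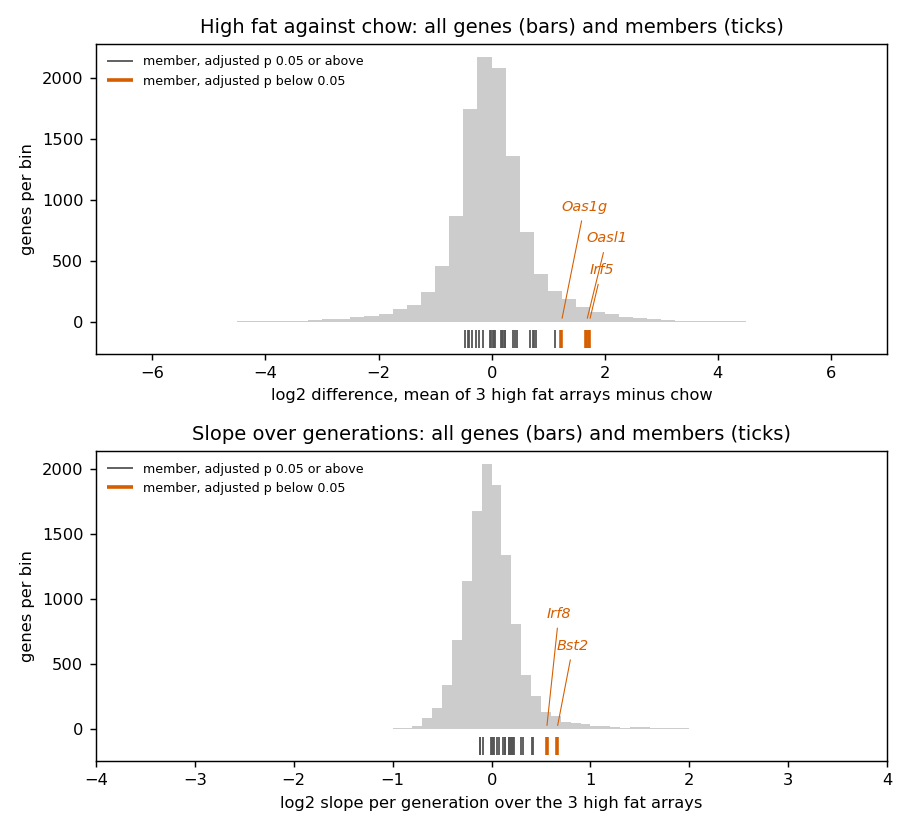
Number of genes (vertical axis) by log2 difference between the 3 high fat arrays and chow, and by slope over the generations in log2 units per generation, for 11384 genes, with the 28 detected members marked. Irf5 (above 97.5% of genes), Oasl1 (97.3%), Oas1g (94.8%) and Irf8 (93.8%) lie in the right part of the first distribution, and Bst2 (97.1%) and Irf8 (96.1%) in that of the second.

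The rest of the interferon pathway was taken from 6 lists of 109 genes outside the members, of which 71 were detected. By limma, 5 of the 71 rose on the high fat arrays and 0 fell, beside 2.91% and 3.43% of all genes. The median high fat difference was 0.257 in the lists and -0.031 over all genes. The counts for each list below are small and are set against the same shares. Of the ligands, 1 of 13 was detected (Ifna1, on the F0 array alone, at 4.93), and Ifnb1 and Ifng, the beta and gamma interferons, were not detected on any array.

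Among 9 detected receptors and signal transducers, 2 rose. Ifngr2, the signalling chain of the interferon gamma receptor, read 7.22 on chow, 8.56 on F0, 8.53 on F1 and 8.41 on F2 (1.28 ± 0.185, adjusted p = 0.0293, limma). Il10rb, shared by the receptors for interleukin 10 and interferon lambda, read 6.69, 7.91, 8.15 and 8.14 (1.38 ± 0.212, adjusted p = 0.0333, limma). Both were above chow on each high fat array. The kinase Jak1 read 7.94, 7.74, 7.53 and 6.74 (adjusted p = 0.445). The interferon lambda receptor gene Ifnlr1 read 6.02 on chow and 5.67 on F2 and was not detected on F0 and F1 (adjusted p = 0.284). Ifnar1 was not detected.

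Of 13 detected sensors and adaptors upstream of interferon, 2 rose, both endosomal receptors for single-stranded RNA. Tlr7 read 6.17 on chow, 7.66 on F0, 8.11 on F1 and 8.37 on F2 (1.88 ± 0.326, adjusted p = 0.0416, limma). Tlr8 was not detected on chow and read 6.10, 6.43 and 6.26 on the high fat arrays, at least 2.42-fold, 3.05-fold and 2.71-fold higher against the lowest detected chow signal (adjusted p = 0.0309). Mavs, the mitochondrial adaptor of the RNA helicases, read 8.48 on chow and 7.87, 7.88 and 7.68 on the high fat arrays (adjusted p = 0.124). Sting1, the adaptor of the DNA-sensing pathway, read 6.44, 5.82, 6.47 and 6.88 (adjusted p = 0.955), and the nucleic acid sensor Zbp1 5.01, 5.61, 5.43 and 5.67 (adjusted p = 0.216).

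Among 8 detected negative regulators none rose or fell against chow, and 1 slope passed. It belonged to Ptpn6, the phosphatase SHP-1 of blood cells, at 7.57 on chow, 8.92 on F0, 9.48 on F1 and 10.49 on F2 (slope 0.787 ± 0.092, adjusted p = 0.0203, limma). Samhd1, which depletes the nucleotides that viruses need, read 8.33, 9.18, 8.94 and 9.61 (adjusted p = 0.146), and the feedback inhibitor Socs3 7.71, 6.91, 6.95 and 7.92 (adjusted p = 0.595). Of 11 detected gamma-type GTPases and chemokines, none rose or fell. The slope of Ciita, the master regulator of MHC class II genes, passed at 0.852 ± 0.165 (adjusted p = 0.0471, limma), with 6.15 on chow, 6.98 on F0, 7.25 on F1 and 8.68 on F2. The T cell chemokine Cxcl9 was above chow on each high fat array, at 9.07 against 10.22, 9.80 and 9.99 (adjusted p = 0.0734). Cxcl10 read 4.89, 5.22, 5.72 and 5.76 (adjusted p = 0.253), and the GTPases Irgm2 and Gbp7 differed by -0.463 and -0.357 (adjusted p = 0.262 and 0.405).

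Of 29 further detected interferon-stimulated genes, 1 rose. Ifi30, a lysosomal thiol reductase of antigen-presenting cells, read 7.99 on chow, 9.51 on F0, 9.92 on F1 and 10.26 on F2 (1.91 ± 0.318, adjusted p = 0.0387), and its slope also passed (adjusted p = 0.0489). The slope of Daxx, a chromatin-associated repressor, fell by 0.476 ± 0.077 per generation (adjusted p = 0.0362), from 10.25 on F0 to 9.30 on F2, all above the chow value of 8.53. Slfn2 read 4.93, 6.14, 6.54 and 7.15 (adjusted p = 0.0945, limma). The membrane proteins Ifitm3 and Ifitm1, which block virus entry, were below chow on all high fat arrays, at 12.95 against 12.003, 12.31 and 12.05, and at 12.57 against 11.78, 12.04 and 12.18 (adjusted p = 0.0713 and 0.176).

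Marker genes of immune cells differed between the same arrays. The summed linear signal of 7 detected macrophage markers of 8 listed was 2413 on chow, 10150 on F0, 13350 on F1 and 17980 on F2, with 4 of the 7 called higher by limma and Itgam not detected on chow. Lyz2 was the brightest of the 7 on every array, at a log2 signal of 12.89 on F1 and 13.48 on F2. The median difference from chow over the 7 was 1.62, 2.03 and 1.88, so it did not rise from F1 to F2. The macrophage sum, Irf5, Oas1g, Oasl1 and Irf8 were all above the single chow array on all 3 high fat arrays. Members under 2-fold, such as Irf7, Mx2 and Eif2ak2, were also above chow on all 3. Bst2 was level with chow on F0. By their brightest bead types, Ifit3, Gbp2, Oas2 and Cmpk2 were below chow on all 3. The sum of 6 conventional dendritic cell markers was 4567, 8625, 8735 and 12160, with Flt3 and Xcr1 not detected. The MHC class II genes H2-Aa and H2-Ab1, which other antigen-presenting cells also express, differed from chow on F2 by 1.45 and 1.44. Of the other 4, Zbtb46 differed by -0.548 and Clec9a by 0.174, Cd209a was detected on chow alone, and Itgax on F1 and F2 alone. The 6 detected plasmacytoid dendritic cell markers, of 8, summed to 2884, 1995, 2352 and 2999, with Ccr9 and Klk1 not detected. These markers did not move together. Against chow on F2, Siglech differed by -0.744, Tcf4 by -0.214, Cox6a2 by -0.255, Ly6d by 1.45 and Lag3 by 0.673, and Spib, not detected on chow, was at least 2.54-fold higher.

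Lymphocyte markers were highest on the F2 array, and hepatocyte markers, summed above, on F1 and F2. The median log2 difference from chow on F2 was 3.95 for B cell, 3.00 for T cell and 5.57 for hepatocyte markers. The sum of 4 detected B cell markers of 7 was 187.9 on chow, 269.7 on F0, 243.2 on F1 and 4736 on F2, and that of 4 detected T cell markers of 7 was 245.6, 295.6, 285.2 and 1981, with Pax5, Cd8a and Cd5 not detected. The sum of 4 detected neutrophil markers of 5 was 290.3, 1268, 1515 and 1290, most of it from S100a8 on the high fat arrays. S100a8 differed from chow by 2.67, 3.10 and 2.77 on F0, F1 and F2. The others did not follow it: on F1, S100a9 differed by -0.592 and Csf3r by 0.009, and Retnlg was not detected. The median difference over the 4 was 0.872, -0.188 and 0.478. The sum of 2 detected NK cell markers of 6 was 310.8, 621.3, 527.2 and 672.3, and that of 5 endothelial markers was 1860, 2180, 1849 and 1345. The endothelial markers did not move together. On F0, Pecam1 and Tek differed from chow by -0.727 and -0.68, Cldn5 and Cdh5 by 0.903 and 0.162, and Kdr was not detected on chow. The median difference over the 5 was 0.162, 0.117 and -0.66. The sum of 8 adipocyte markers was 29840, 52670, 49940 and 34410. Lep, a large part of that sum, differed from chow by 2.60, 2.61 and 1.94 on F0, F1 and F2. The median difference over the 8 was 0.336, 0.006 and -0.516, so the sum and the median differ in direction on F2. The part of these cell markers in the values of Irf5, Oas1g, Oasl1, Irf8 and Bst2 was not tested.

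**Figure D5:**
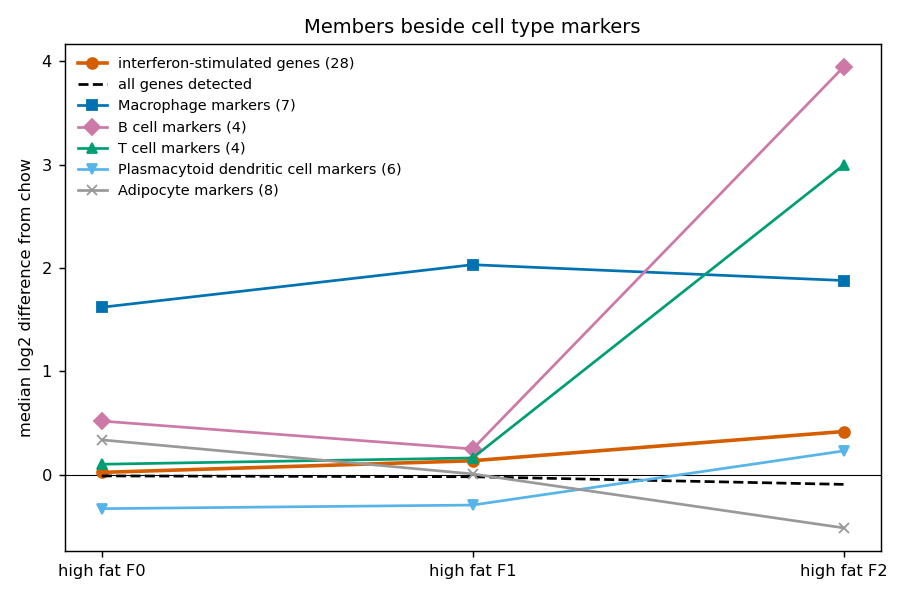
Median log2 difference from chow (vertical axis) on the F0, F1 and F2 arrays for the 28 detected members, for all genes and for the detected markers of 5 cell types, 1 line a list and no error bars. Macrophage markers lie at 1.62, 2.03 and 1.88 on the 3 arrays, B and T cell markers reach 3.95 and 3.00 on F2, and the members go from 0.021 to 0.417.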

How the data were processed

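Per the labels' protocols, total RNA was amplified to biotin-labelled cRNA with an Illumina TotalPrep kit, and it was read on 4 mouse bead arrays. GenomeStudio 2010.2 is named in the submitters' processing notes. In the deposited table there are a linear intensity and a detection p-value for each bead type and array. Each deposited intensity column has the same mean, 274.4, so the arrays appear to have been scaled, a step the labels do not state. The authors' value table, an alternative here, holds background-subtracted intensities with slopes of 0.987 to 1.01 against the first table, on a linear scale, not centred by gene, with column medians of 6.17, 5.69, 5.61 and 6.24 for chow, F0, F1 and F2. The number of sample columns not used was 0.

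The nec function corrected the background, from limma 3.58.1 in R 4.3.3 (controls inferred from detection p-values, offset 16), followed by quantile normalization and log2. Of 45281 bead types, 34885 had 1 symbol in the platform annotation, 18 several and 10378 none, and 34807 were matched by gene ID. A gene was represented by its bead type with the highest mean among those detected (p below 0.01) on at least 1 array. Limma (lmFit, eBayes with a mean trend, two-sided, Benjamini-Hochberg at 0.05 over 11384 genes) compared the 3 high fat arrays with chow and fitted a slope over generations. The procedure was tested on simulated data with independent noise and with changes larger than those of any member. That test therefore says nothing of its precision here. Arrays carry no depth, and their number limits the precision. All members were named. From each other list the 2 genes with the largest increase and the 2 with the largest decrease were named, plus Ifng, Ifnb1, Cxcl10 and Zbp1, and any other gene whose test passed, chosen after its values were seen. The members and lists were chosen with earlier results of these data known, and 1 gene of the lists is not reported here. Alternatives changed the background correction, scaling, detection threshold, bead type rule, fold and arrays left out. Tables were handled with pandas 2.3.3 in Python 3.11.15.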

Additional observations from a re-analysis of the deposited data

Results flagged for a closer look

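For Irf8 and Bst2 the slope over F0, F1 and F2 on the high fat diet passed limma's test. The slope was 0.556 log2 units per generation for Irf8 (adjusted p = 0.0441, limma, 3 arrays) and 0.661 for Bst2 (adjusted p = 0.0427). Both values rest on 1 array per generation and 1 bead type per gene.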

How the results depend on the processing

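No value of a single member reversed a called direction. Of 1316 values of single members under the alternatives, 1265 kept their call or moved by less than the spread between bead types, 21 moved by more, 16 lost a call and 14 gained one. The members counted at 2-fold against chow on F0 (3) became 1 where the background was not corrected, 1 where the offset was 50, and 7 at 1.5-fold. Of these 7, 6 were higher and 1, Oasl2, was lower, beside 15.0% and 15.3% of all genes. With median scaling and in the authors' value table the F0 count was 2, without Oas1g. On F1 (4) they became 3, without Irf8, where the background was not corrected, where the offset was 50 and with median scaling. On F2 (5) they became 6 in the authors' value table, where Isg15 joined. At 1.5-fold they became 8 on F1 and 8 on F2, all higher, beside 15.5% and 16.6% of all genes. No member was as much lower, beside 14.9% and 19.4%. Between F1 and F0 (0) they became 1 with median scaling and 1 in the authors' value table, Bst2 in both, and 2 at 1.5-fold. Of these 2, Bst2 was higher and Gbp3 lower, beside 2.68% and 1.48% of all genes. Between F2 and F1 (0) they became 1, Irf1, at 1.5-fold, which was higher, beside 6.95% of all genes higher and 7.65% lower. Between F2 and F0 (2) they became 1, Bst2, both where the background was not corrected and where the offset was 50. At 1.5-fold they became 6, all higher, beside 10.9% of all genes higher and 12.1% lower. The members called higher on high fat (3) became 0 with median scaling and 0 in the authors' value table. With 1 array left out the count ran from 0, without F1, to 5, without F2, when Dhx58 and Ifi35 joined. The members with a called slope (2) became 4 where the background was not corrected, where the offset was 50, with detection at p below 0.05 and with genes detected on all arrays, where Irf1 and Oasl2 joined. They became 5 where undetected signals were set to the lowest detected one, and 0 with median scaling, in the authors' value table and without the mean trend. The median over members turned negative on F0 with median scaling (-0.108, all genes -0.109) and in the authors' value table (-0.124, all genes -0.063), and on F1 in that table (-0.016, all genes -0.056). The causes were not tested. For the limma counts under these alternatives, the share of all genes called in the same setting is not given here. A gain in such a count is therefore not read as particular to the members.

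Limits: 1 array of mixed RNA per group gives no spread within a group, and low signals such as that of Oasl1 depend on the background. No paired analysis was possible because each group has 1 array and the labels give no replicate number.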
